A study of Drosophila melanogaster with 10 samples.

Results

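The genes described here are 9 transcription factors used as markers of regions along the fly gut, dve, lab, Ptx1, GATAe, exex, cad, abd-A, Abd-B and byn, listed from anterior to posterior. They were taken by symbol from a predefined list, which was drawn up with earlier results of these data known, and all 9 were found among the 14292 genes with a transcript in the expression table. All libraries came from whole midguts of adult male Drosophila melanogaster mutant for Dredd, the caspase through which the IMD immune pathway activates its transcription factor Relish. In the first group, called mex>PGRP-LE, Dredd D44/Y males carried mex-GAL4 over UAS-PGRP-LE, so that the peptidoglycan receptor PGRP-LE is overexpressed in enterocytes, the absorptive cells in which mex-GAL4 is active. The control group, called mex>+, consisted of Dredd D44/Y males with mex-GAL4 over a chromosome without the UAS construct (mex-GAL4/+). Each group had 5 libraries, described as biological replicates, RNA was taken from 20 pooled midguts, and the flies ate yeast alone at 25 °C with 12 h of light until 7 days after eclosion. Because Dredd is mutant in both groups, nothing here compares wild-type flies.

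The midgut is built from successive regions that differ in the enzymes they secrete, in acidity and in the nutrients they absorb, and homeobox, GATA and T-box transcription factors set up and maintain these regions. Hox genes such as lab, abd-A and Abd-B are better known for patterning the body axis, and in the embryo several of the 9 genes act in the endoderm, in the muscle around it or in the hindgut. The same gene can therefore be transcribed in enterocytes, hormone-secreting cells, muscle or cells of neighbouring organs, which a whole-gut library does not separate. In such bulk samples fewer cells of a type and less RNA per cell cannot be told apart, and the order along the gut is that of the list, since no library was made from a single region.

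The values are TPM, a length-corrected transcript abundance scaled to a total of 1000000 in every library, so the depth of sequencing cannot be read from them and counting intervals are left out. PGRP-LE itself stood between 4257 and 5030.2 TPM in mex>PGRP-LE midguts, against 35.9 to 41.8 TPM in mex>+ midguts. The enterocyte gene mex1 and the other enterocyte markers were present in every library, none of the 10 testis and accessory gland markers and none of the 6 haemocyte markers reached 1 TPM in any library, and Malpighian tubule markers varied widely, with a summed level of 62.0 to 220 TPM in mex>PGRP-LE and 159 to 468 TPM in mex>+ libraries.

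Most of the regional factors were lower with PGRP-LE overexpression. Of the 9 genes, all of which were tested, 6 fell (dve, lab, exex, cad, Abd-B and byn), 1 rose (Ptx1), and GATAe and abd-A did not pass the test. Among all 8722 genes tested, 22.8% were lower and 40.1% were higher by the same rule, which was a limma adjusted p under 0.05 on log2(TPM + 1). The median log2 change, mex>PGRP-LE minus mex>+, was -0.37 over the 9 genes and 0.09 over all genes tested. Every mex>PGRP-LE library lay below every mex>+ library for 5 of the 9 genes, against 17.0% of all genes tested, and the opposite separation was seen for 0 of the 9, against 31.3% of all genes tested. The 9 genes together summed to between 161 and 176 TPM in mex>PGRP-LE libraries and between 189 and 214 TPM in mex>+ libraries.

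**Figure D1:**
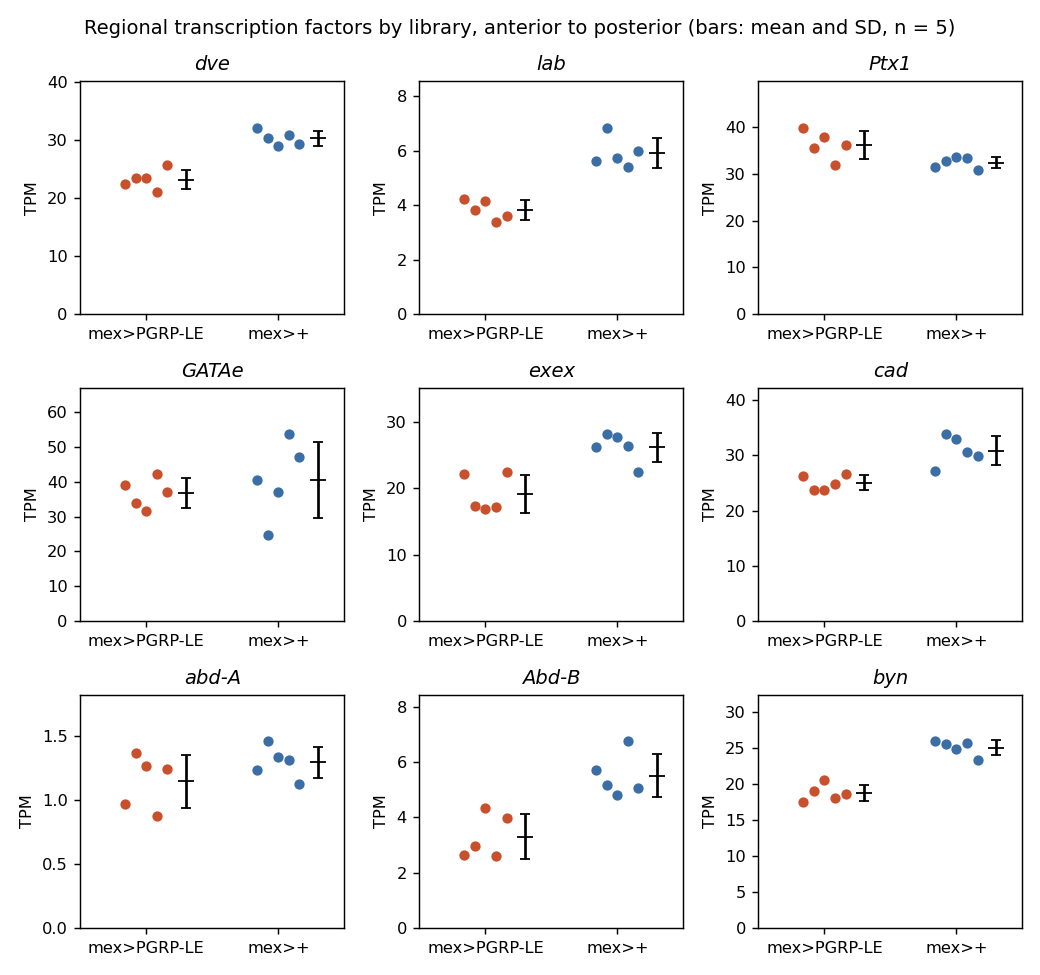
TPM of each of the 9 factors in every library, mex>PGRP-LE in red and mex>+ in blue, with the mean and SD of 5 libraries in black; each panel has its own axis starting at 0. The groups are apart for dve, lab, cad, Abd-B and byn and overlap for Ptx1, GATAe, exex and abd-A.

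At the anterior end of the list stands dve (defective proventriculus; FBgn0020307, chromosome 2R, 22243963 to 22286469 on BDGP6.54, plus strand), a homeobox gene required for the proventriculus and for the function of copper cells in the embryonic and larval gut. It measured 22.4, 23.4, 23.5, 21.2 and 25.8 TPM in the mex>PGRP-LE libraries (replicates 1 to 5), against 32.2, 30.4, 29.0, 30.8 and 29.4 TPM in the mex>+ libraries. The highest overexpression library lay below the lowest control. The means were 23.2 ± 1.70 TPM with overexpression and 30.4 ± 1.26 TPM in controls (SD, n = 5 each), and the log2 difference was -0.37 ± 0.05 (SE; limma adjusted p = 8.95e-05).

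lab (labial; FBgn0002522, 3R, 6661427 to 6678590, minus strand) is the Hox gene that specifies copper cells, the acid-secreting cells of the middle midgut. Its level was 4.23, 3.80, 4.15, 3.37 and 3.62 TPM in mex>PGRP-LE libraries, against 5.62, 6.84, 5.72, 5.40 and 5.99 TPM in mex>+ libraries. Every overexpression library was below every control, and the mean with overexpression was 64.9% of the control mean. The log2 change was -0.52 ± 0.07 (SE; limma adjusted p = 6.72e-05), on a scale whose added 1 TPM understates the change of a gene this low.

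Ptx1 (FBgn0020912, 3R, 30912754 to 30930682, plus strand), a homeobox gene of the Pitx family that is transcribed in the midgut, differed from the rest in its direction. It measured 39.8, 35.5, 37.8, 31.8 and 36.1 TPM in mex>PGRP-LE libraries, against 31.5, 32.7, 33.5, 33.4 and 30.8 TPM in mex>+ libraries. Replicate 4 with overexpression lay within the control range and the other 4 lay above it. The means were 36.2 ± 2.98 TPM with overexpression and 32.4 ± 1.20 TPM in controls (SD, n = 5 each), and the log2 change was 0.15 ± 0.06 (SE; limma adjusted p = 0.0368). That call was the least stable of the 7. It was lost on omission of 7 of the 10 libraries, taken 1 at a time (each of mex>PGRP-LE replicates 1, 2, 3 and 5 and mex>+ replicates 1, 2 and 5, limma adjusted p = 0.0536 to 0.0882), and with the replicate number as a block (adjusted p = 0.0797). Each of the 3 rescalings of the TPM ended it as well, with adjusted p = 0.234 after quantile normalization and 0.439 after median-of-ratios rescaling.

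GATAe (FBgn0038391, 3R, 16009105 to 16019133, plus strand) encodes a GATA factor of the endoderm that is needed along the whole midgut and in its stem cells. Its mean was the highest of the 9 in both groups, although Ptx1 exceeded it in mex>PGRP-LE replicates 1, 2 and 3. GATAe was also exceeded by Ptx1, cad, dve, exex and byn in mex>+ replicate 2. Its level was 39.2, 33.8, 31.5, 42.3 and 37.2 TPM in mex>PGRP-LE libraries, against 40.4, 24.8, 37.2, 53.6 and 47.1 TPM in mex>+ libraries. The controls ranged so widely that they enclosed all overexpression libraries, and the log2 change of -0.10 had a 95% interval from -0.50 to 0.30 (limma adjusted p = 0.647). A change as large as that of dve lies inside this interval. Without control replicate 4 the change was 0.01.

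exex (extra-extra; FBgn0041156, 3L, 7948186 to 7951563, plus strand) is the fly relative of the vertebrate homeobox gene HB9 and is best known from motor neurons. It measured 22.1, 17.4, 16.8, 17.2 and 22.5 TPM in mex>PGRP-LE libraries, against 26.2, 28.1, 27.7, 26.4 and 22.5 TPM in mex>+ libraries. The groups touched at replicate 5, where both libraries stood at 22.5 TPM, and were apart otherwise. The log2 change was -0.43 ± 0.09 (SE; limma adjusted p = 0.00152).

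cad (caudal; FBgn0000251, 2L, 20770731 to 20783135, plus strand), the homeobox gene of the posterior midgut that also holds down IMD-dependent antimicrobial peptide genes there, had the smallest fall of the 6. It stood at 26.3, 23.8, 23.7, 24.7 and 26.6 TPM in mex>PGRP-LE libraries, against 27.2, 33.8, 32.9, 30.6 and 29.8 TPM in mex>+ libraries. The groups did not overlap, with control replicate 1 close to the overexpression range. The log2 change was -0.29 ± 0.06 (SE; limma adjusted p = 0.00152).

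abd-A and Abd-B lie 97163 bp apart in the bithorax complex on 3R (abd-A, FBgn0000014, 16807214 to 16830049; Abd-B, FBgn0000015, 16927212 to 16972236, both on the minus strand) and specify posterior segments. abd-A was the lowest of the 9 genes, at 0.972, 1.37, 1.27, 0.879 and 1.25 TPM in mex>PGRP-LE libraries, against 1.24, 1.46, 1.34, 1.32 and 1.13 TPM in mex>+ libraries. The groups overlapped, and the log2 change of -0.10 had a 95% interval from -0.28 to 0.08 (limma adjusted p = 0.295). The added 1 TPM understates the change of a gene this low, whose mean with overexpression was 88.5% of the control mean. Quantile normalization, which forces the same distribution on all libraries, gave -0.25 (adjusted p = 0.0251).

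Abd-B had the largest fall of the 9. Its level was 2.63, 2.95, 4.34, 2.60 and 3.98 TPM in mex>PGRP-LE libraries, against 5.73, 5.17, 4.79, 6.75 and 5.04 TPM in mex>+ libraries. The groups did not overlap, and the mean with overexpression was 60.0% of the control mean. The log2 change was -0.61 ± 0.12 (SE; limma adjusted p = 0.00111). Abd-B is also transcribed in the male reproductive tract, whose 10 listed markers summed to 0.328 to 0.874 TPM in mex>PGRP-LE and 0.105 to 0.810 TPM in mex>+ libraries.

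byn (brachyenteron; FBgn0011723, 3L, 11927693 to 11935919, plus strand), the T-box gene related to vertebrate Brachyury, is required to form the hindgut, the organ that follows the midgut. It measured 17.6, 19.0, 20.6, 18.1 and 18.6 TPM in mex>PGRP-LE libraries, against 26.0, 25.6, 24.9, 25.7 and 23.4 TPM in mex>+ libraries. Its groups lay well apart, and the spread within each was small. The means were 18.8 ± 1.15 TPM with overexpression and 25.1 ± 1.04 TPM in controls (SD, n = 5 each), and the log2 difference was -0.40 ± 0.05 (SE; limma adjusted p = 2.74e-05).

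**Figure D2:**
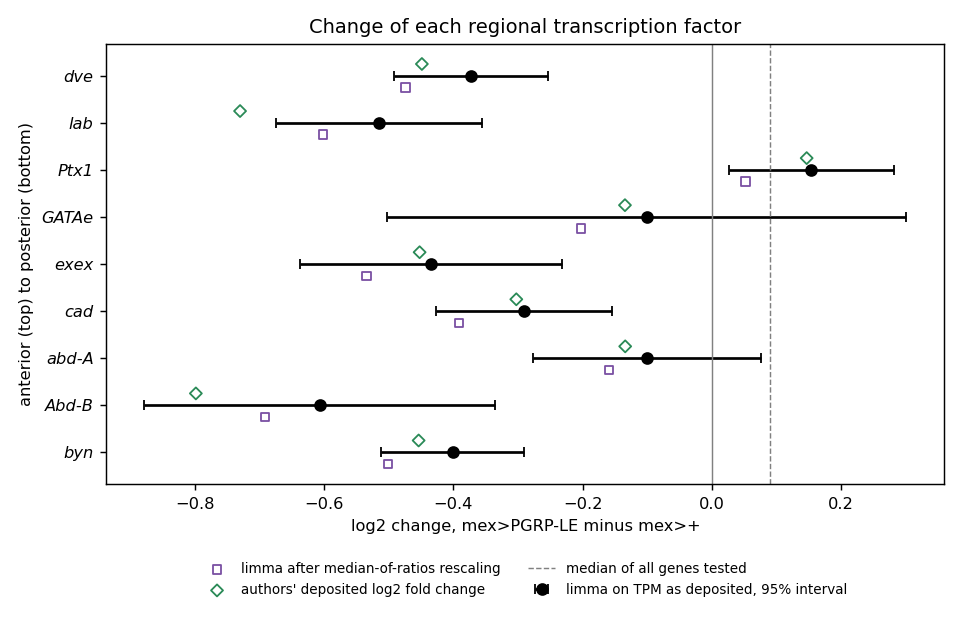
Log2 change of each factor (mex>PGRP-LE minus mex>+) from anterior at the top to posterior at the bottom; black points and bars are the limma estimate with its 95% interval, squares the estimate after median-of-ratios rescaling, diamonds the log2 fold change in the authors' deposited table, and the dashed line the median of 0.09 over all genes tested. The intervals of dve, lab, exex, cad, Abd-B and byn lie below 0, and those of GATAe and abd-A cross it.

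The 2 largest falls, of Abd-B and lab, belonged to genes near the posterior and the anterior end of the list, and GATAe and abd-A, which did not pass, stood between them. In the authors' deposited table, which names RUVSeq without its settings and does not state whether its p-values are adjusted, the log2 fold changes were -0.45 for dve, -0.73 for lab, 0.15 for Ptx1, -0.13 for GATAe, -0.45 for exex, -0.30 for cad, -0.13 for abd-A, -0.80 for Abd-B and -0.45 for byn. The authors' deposited table gave Ptx1 a p of 0.166, GATAe 0.488 and abd-A 0.377, and the other 6 genes p-values from 6.11e-08 for lab to 0.00357 for cad.

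Between the genes, levels spanned a wide range. In mex>PGRP-LE libraries the order of mean TPM was GATAe, Ptx1, cad, dve, exex, byn, lab, Abd-B and abd-A, and in mex>+ libraries it was the same. The spacing differed, however. With overexpression the ranges of Ptx1 and cad were apart, whereas in controls they overlapped, and dve and exex overlapped with overexpression, whereas in controls they were apart. Neighbours that overlapped in both groups were GATAe and Ptx1, cad and dve, exex and byn, and lab and Abd-B. The ratio of Ptx1 to lab, chosen after the values were seen and given without a test, was 9.10 to 9.98 in mex>PGRP-LE libraries and 4.79 to 6.18 in mex>+ libraries.

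The table lists transcripts, so the isoforms behind each gene can be followed. The 9 genes had 30 transcripts, of which 16 passed the filter, 1 TPM or more in 5 or more libraries, and were tested among 15162 transcripts. Of these 16, 6 fell, 1 rose and 9 did not pass, and 18.2% of all transcripts tested were lower and 28.0% higher. For each gene that fell, 1 transcript fell.

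Of the dve transcripts, dve-RA passed as lower and dve-RB did not. dve-RA starts 26955 bp upstream of dve-RB, at 22243963 on 2R, and encodes the longer protein, of 1024 residues, against 780 residues for dve-RB. dve-RA stood at 8.73, 10.1, 11.2, 7.52 and 9.75 TPM in mex>PGRP-LE libraries, against 15.2, 14.8, 14.4, 15.1 and 14.6 TPM in mex>+ libraries, without overlap (log2 change -0.61 ± 0.09, SE; limma adjusted p = 2.29e-04). dve-RB stood at 13.7, 13.3, 12.3, 13.6 and 16.0 TPM in mex>PGRP-LE libraries, against 17.0, 15.6, 14.6, 15.7 and 14.7 TPM in mex>+ libraries, with overlap (-0.17 ± 0.07, SE; limma adjusted p = 0.0836). Under median-of-ratios rescaling and quantile normalization dve-RB passed as well, at -0.24 and -0.21 on the log2 scale. It also passed as lower without mex>PGRP-LE replicate 5 (-0.22, limma adjusted p = 0.0181). The share of dve-RA in the gene was 40.6% ± 4.79 with overexpression and 48.8% ± 1.07 in controls (SD, n = 5 each; exact permutation test, two-sided, p = 0.0159, adjusted over 16 shares p = 0.0847). The shift in share did not pass after adjustment. Only 30 exonic bases of dve-RB are in no other transcript of the gene, so the split rests on the 1464 bases that only dve-RA holds.

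In lab, Abd-B and byn, 1 transcript each passed as lower. lab-RA, which held 77.9% ± 15.7 of lab with overexpression and 86.3% ± 7.08 in controls (SD, n = 5 each) and encodes the protein of 629 residues, stood at 2.95, 3.69, 3.86, 2.19 and 2.35 TPM in mex>PGRP-LE libraries, against 5.42, 6.14, 4.91, 4.32 and 4.76 TPM in mex>+ libraries (log2 change -0.62 ± 0.14, SE; limma adjusted p = 0.00364). lab-RB, which starts 15136 bp downstream and encodes 213 residues, ranged from 0.112 to 1.28 TPM with overexpression and from 0.205 to 1.24 TPM in controls (adjusted p = 0.962). Abd-B-RB, whose protein of 493 residues is the longest that the gene encodes, stood at 0.982, 0.848, 1.18, 0.717 and 1.49 TPM in mex>PGRP-LE libraries, against 2.06, 2.03, 1.70, 2.81 and 2.32 TPM in mex>+ libraries. Its groups did not overlap (-0.64 ± 0.13, SE; limma adjusted p = 0.00222), and it was the only one of the 10 Abd-B transcripts to reach the level for testing. It held the largest mean share of the gene among the Abd-B transcripts in both groups, 31.6% ± 5.20 with overexpression and 39.6% ± 4.33 in controls (SD, n = 5 each).

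The Abd-B transcripts RD, RF and RG had identical values in every library and were summed. Each was too low for testing, at 0.0749 to 0.257 TPM with overexpression and 0.350 to 0.792 TPM in controls. Together they held 16.6% ± 5.16 of the gene with overexpression and 26.2% ± 8.61 in controls (SD, n = 5 each), without overlap. The exact permutation test gave p = 0.00794, the smallest that 5 against 5 allows, and p = 0.0847 adjusted over the 16 shares. Of the 16 shares, 0 passed and 4 had an unadjusted p under 0.05. Shares of dve-RA and dve-RB, both among those 4, mirror each other, as do the shares within lab, Ptx1 and byn. The share of Abd-B-RC moved the other way, at 13.0% ± 8.17 with overexpression and 3.43% ± 2.81 in controls, with overlap (SD, n = 5 each; exact permutation test, p = 0.0238, adjusted p = 0.0952).

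byn-RB stood at 9.76, 14.6, 15.0, 12.0 and 9.43 TPM in mex>PGRP-LE libraries, against 18.5, 18.1, 17.0, 17.5 and 15.2 TPM in mex>+ libraries (log2 change -0.49 ± 0.13, SE; limma adjusted p = 0.00793). byn-RC overlapped between the groups, at 4.46 to 9.18 TPM with overexpression and 7.46 to 8.20 TPM in controls (adjusted p = 0.200), and only 32 exonic bases separate both transcripts. Without mex>PGRP-LE replicate 5, byn-RC passed as lower too (-0.36, limma adjusted p = 0.0386). Of the remaining genes, exex has 1 transcript, and cad-RA held 95.1% ± 2.56 of cad with overexpression and 95.4% ± 1.72 in controls (SD, n = 5 each). Ptx1-RC, the main transcript of Ptx1, was called higher (0.21 ± 0.07, SE; limma adjusted p = 0.0347), a call that ended under each rescaling, with the replicate block and without the filter on low values (adjusted p = 0.0556 to 0.210), and on omission of any of 5 single libraries. Ptx1-RA and Ptx1-RE had identical values, from 3.65 to 5.47 TPM with overexpression and 4.14 to 4.96 TPM in controls. GATAe-RA spread as widely as its gene, from 25.7 to 37.1 TPM with overexpression and from 19.9 to 49.6 TPM in controls.

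**Figure D3:**
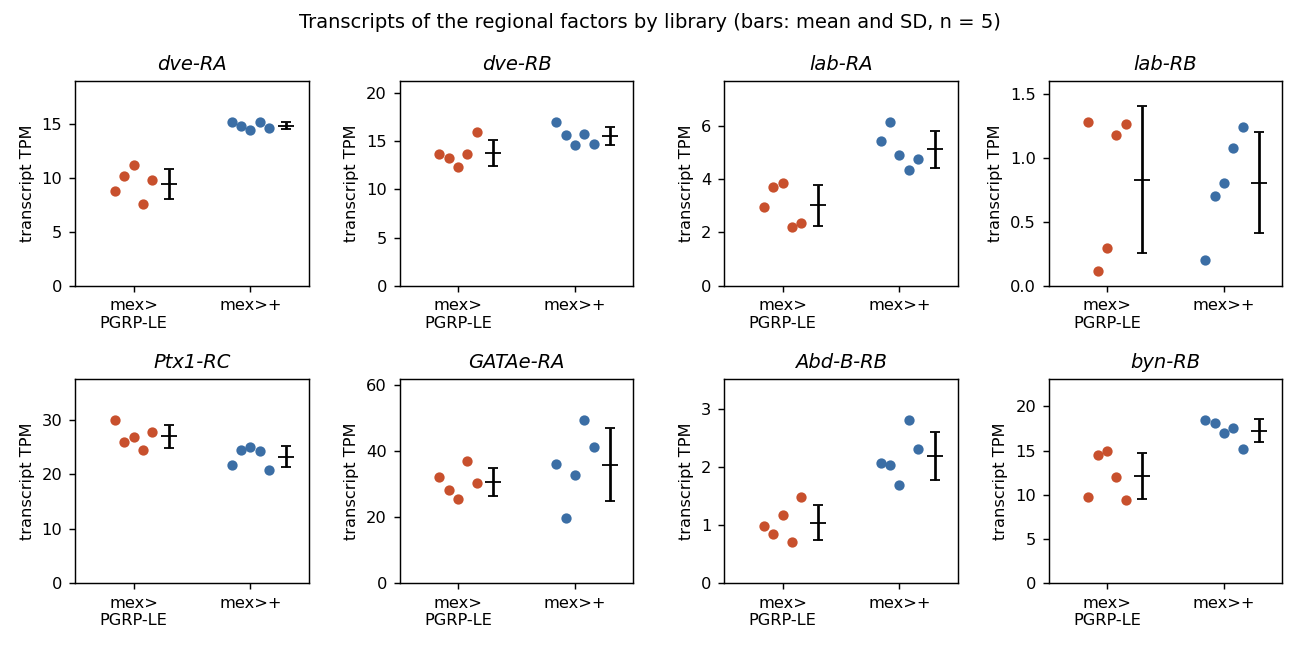
TPM of 8 transcripts of the factors in every library, mex>PGRP-LE in red and mex>+ in blue, with mean and SD of 5 libraries in black; each panel has its own axis starting at 0. dve-RA, lab-RA, Abd-B-RB and byn-RB are apart between the groups, whereas dve-RB, lab-RB, Ptx1-RC and GATAe-RA overlap.

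Related transcription factors were followed from lists made with earlier results of these data known. Of the 8 Hox genes, 3 reached the level for testing, lab, abd-A and Abd-B, and the other 5 stayed under 1 TPM in every library. Among the 5 GATA factors, srp, which acts in embryonic endoderm and blood cells, fell to 3.03 ± 0.485 TPM with overexpression, against 5.88 ± 1.05 TPM in controls (SD, n = 5 each; log2 change -0.77 ± 0.12, SE; limma adjusted p = 1.17e-04). GATAd, at 9.69 ± 0.379 TPM with overexpression and 10.4 ± 0.914 TPM in controls (SD, n = 5 each), did not pass (adjusted p = 0.198). It was called lower under median-of-ratios rescaling (-0.19), under quantile normalization (-0.16) and without mex>+ replicate 5 (-0.14). None of the 3 tested GATA factors rose, and the median change of the list was -0.10. The other 2, grn and pnr, stayed under 1 TPM in every library. grn stood at 0.193 to 0.287 TPM with overexpression and 0.0250 to 0.0544 TPM in controls, without overlap. It was called higher without the filter on low values (limma adjusted p = 4.27e-06). pnr overlapped, at 0 to 0.0615 TPM with overexpression and 0 to 0.0340 TPM in controls.

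Of 12 other gut transcription factors and Hox cofactors, 10 were tested, of which 4 fell, 2 rose and 4 did not pass, with a median log2 change of -0.05. Of the untested genes, tll was at 0 in every library. hkb stood at 0.162 to 0.848 TPM with overexpression and 0 to 0.120 TPM in controls, without overlap. It was called higher without the filter on low values (limma adjusted p = 0.00452). odd, a zinc finger gene of the odd-skipped family, measured 12.4, 14.2, 12.9, 13.8 and 13.7 TPM in mex>PGRP-LE libraries, against 21.0, 21.2, 22.8, 24.1 and 20.6 TPM in mex>+ libraries (-0.67 ± 0.06, SE; limma adjusted p = 8.96e-07). Its relative bowl fell by 0.56 and drm, also of that family, fell by 0.20 on the log2 scale, while the fourth of them, sob, stood at 4.27 ± 0.388 TPM with overexpression and 4.40 ± 0.219 TPM in controls (SD, n = 5 each) and did not pass. fkh, the FoxA factor of gut endoderm, foregut and hindgut, fell by 0.35 on the log2 scale.

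The 2 that rose were the POU-domain genes. pdm2 measured 8.64, 6.21, 7.59, 12.7 and 11.0 TPM in mex>PGRP-LE libraries, against 3.92, 4.51, 4.21, 3.89 and 3.59 TPM in mex>+ libraries, without overlap (0.99 ± 0.15, SE; limma adjusted p = 1.59e-04). nub, which encodes the enterocyte factor Pdm1, rose to 56.6 ± 2.70 TPM with overexpression, against 46.7 ± 6.54 TPM in controls (SD, n = 5 each; 0.28 ± 0.09, SE; limma adjusted p = 0.0119), a call that ended under median-of-ratios rescaling (adjusted p = 0.0751). The Hox cofactors exd and hth and the nuclear receptor gene Hnf4 did not pass, with limma adjusted p of 0.288, 0.0560 and 0.976. However, exd passed as lower under median-of-ratios rescaling (-0.16) and quantile normalization (-0.13). hth passed as higher with the replicate block (0.23) and with array weights (0.22). It also passed without mex>PGRP-LE replicate 3 and mex>+ replicate 2 together, and on omission of any of 3 single libraries.

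**Figure D4:**
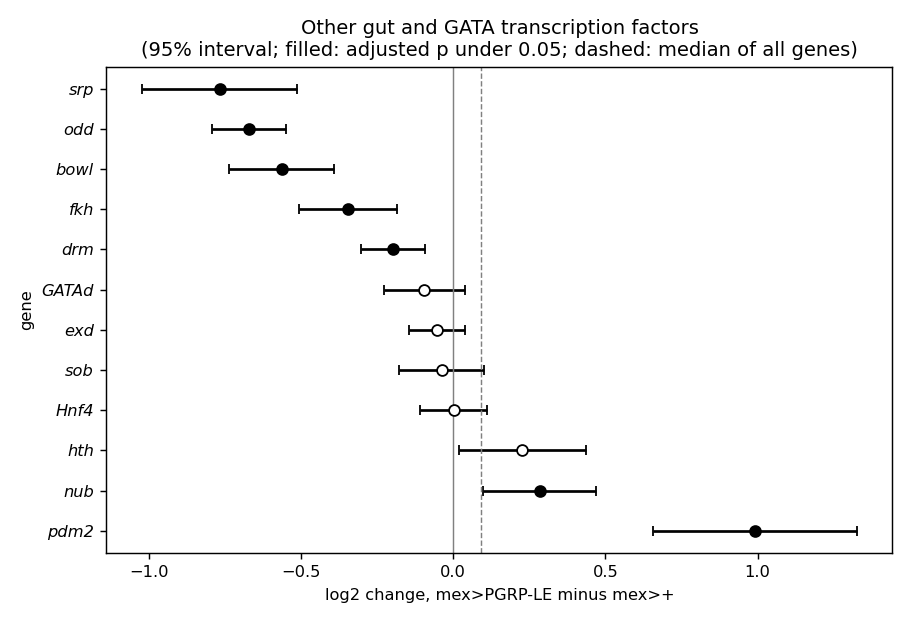
Log2 change (mex>PGRP-LE minus mex>+) with 95% interval for the 12 tested GATA factors and other gut transcription factors that are not among the 9; filled points passed the threshold and the dashed line is the median of all genes. srp, odd, bowl, fkh and drm lie below 0 and nub and pdm2 above it, although drm did not pass after rescaling to the spike-ins and nub after median-of-ratios rescaling.

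Genes of the regions that these factors mark, and of neighbouring tissues, were counted in the same way, beside 22.8% lower and 40.1% higher over all genes tested. Of 9 listed genes of the copper cell and iron regions, all tested, 3 fell, 1 rose and 5 did not pass, with a median of -0.14. Vha100-4, a proton pump subunit of copper cells, measured 64.0, 70.9, 76.1, 51.1 and 73.5 TPM in mex>PGRP-LE libraries, against 87.8, 94.9, 86.7, 73.6 and 81.9 TPM in mex>+ libraries, where mex>PGRP-LE replicate 3 lay above mex>+ replicate 4, so that the groups overlapped (-0.34 ± 0.10, SE; limma adjusted p = 0.0123). That call ended after rescaling to the spike-ins (adjusted p = 0.0507). The level of lab per Vha100-4, chosen after the values were seen and given without a test, was 0.0492 to 0.0661 in mex>PGRP-LE and 0.0640 to 0.0734 in mex>+ libraries, which overlap. The other falls were of the metallothionein genes MtnA and MtnC, whose products bind copper and other metals, where MtnA fell by 1.60 and MtnC fell by 1.78 on the log2 scale, and the metal ion transporter gene Mvl rose by 0.32.

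Beside byn, 3 of 4 other hindgut and pylorus markers were tested, of which 2 fell, 0 rose and 1 did not pass. otp, a hindgut homeobox gene, measured 5.82 to 7.71 TPM (median 6.69 TPM) in mex>PGRP-LE libraries, against 8.91 to 10.8 TPM (median 9.92 TPM) in mex>+ libraries, without overlap (-0.50 ± 0.08, SE; limma adjusted p = 1.48e-04). wg, a Wnt ligand made at gut boundaries, measured 1.29 ± 0.189 TPM with overexpression and 1.73 ± 0.221 TPM in controls (SD, n = 5 each; limma adjusted p = 0.0162), and its call ended with the replicate block (adjusted p = 0.0506). None of the 4 markers was at 0 in every library, although 1 stayed under 1 TPM in every library. Their summed level was 13.1 to 16.3 TPM in mex>PGRP-LE and 15.5 to 18.6 TPM in mex>+ libraries. The level of byn per otp, chosen after the values were seen and given without a test, overlapped between the groups, at 2.42 to 3.02 with overexpression and 2.37 to 2.67 in controls. The part of hindgut tissue in the change of byn was not tested.

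**Figure D5:**
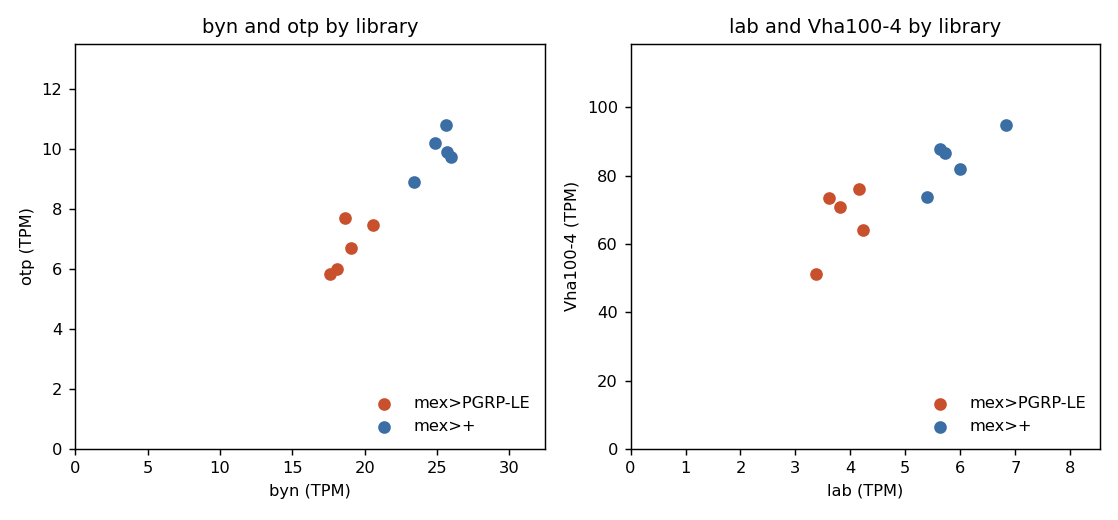
Left, byn against otp, and right, lab against Vha100-4, both in TPM on axes that start at 0, with 1 point per library (mex>PGRP-LE red, mex>+ blue). byn lies at 17.6 to 20.6 TPM with overexpression and 23.4 to 26.0 TPM in controls, and otp is lower in the same libraries.

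Markers of other tissues mostly fell or did not pass, where 22.8% of all genes tested were lower and 40.1% higher. Of 10 muscle markers, 0 rose, 4 fell and 6 did not pass, and their summed level was 1728 to 2165 TPM in mex>PGRP-LE and 1749 to 2172 TPM in mex>+ libraries. The muscle transcription factor gene Mef2 fell by 0.44 on the log2 scale. Of 5 tested Malpighian tubule markers 3 fell and 0 rose, with a median log2 change of -1.19. Irk3 fell by 1.23, ZnT35C fell by 1.19 and Best2 fell by 0.42 on the log2 scale, and Best2 alone still passed with the replicate block and without mex>PGRP-LE replicate 2, mex>+ replicate 2 or mex>+ replicate 3. With 1 library left out at a time, ZnT35C kept its call in 3 of 10 fits, Irk3 in 7 and Best2 in all 10. Of 4 tested trachea markers 2 fell, Gasp by 0.43 and btl by 0.22, and 0 rose. The call of btl ended with the replicate block (limma adjusted p = 0.0656) and after rescaling to the spike-ins (adjusted p = 0.0728). It also ended without mex>PGRP-LE replicate 1, mex>+ replicate 1 or mex>+ replicate 2, and without mex>PGRP-LE replicate 3 and mex>+ replicate 2 together. Of 3 tested neuron markers, nSyb fell by 0.58, Syt1 was called higher (0.17, limma adjusted p = 0.0422) and 1 did not pass. The call of Syt1 ended with the replicate block (adjusted p = 0.110), under each rescaling and on omission of any 1 library other than mex>PGRP-LE replicates 1 and 4. Neither of 2 tested fat body markers passed. Of these, apolpp passed as lower with the replicate block (-0.66, limma adjusted p = 0.0323) and without mex>PGRP-LE replicate 3 (-0.97, adjusted p = 0.0307). It also passed without mex>PGRP-LE replicate 3 and mex>+ replicate 2 together (-1.03, adjusted p = 0.0442).

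Among the cells of the midgut epithelium, 5 of 6 enterocyte markers rose and 1 fell, with Tsp2A, Ssk and mesh rising by 0.97, 0.84 and 0.81 on the log2 scale. Over all genes tested, 40.1% were higher and 22.8% lower. Of the 7 progenitor markers 6 were found and tested, and all of those rose, among them esg, Sox21a and E(spl)m3-HLH. Of 10 enteroendocrine markers 2 rose, CCHa1 by 0.59 and NPF by 0.33, while CCHa2 fell by 0.32 and 7 did not pass. The part of these tissues and cell types in the changes of the 9 factors was not tested.

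Within the groups, the 9 genes did not deviate as 1 block. After each group's mean was taken out, the deviations of log2(TPM + 1) over the 10 libraries had a Pearson r of 0.71 between Abd-B and byn, 0.71 between Abd-B and dve, 0.68 between abd-A and byn and 0.66 between exex and cad, and of -0.71 between lab and GATAe. These values are descriptions from 10 libraries that share their scaling, the extremes among 36 pairs, and carry no test. Of 8713 other genes, the one whose deviations were most like those of a factor was CG7724 for dve, Sytbeta for lab, mt:ATPase8 for Ptx1, Cyp6v1 for GATAe, fl(2)d for exex, wde for cad, msl-2 for abd-A, Prp6 for Abd-B and angel for byn, with r from 0.91 to 0.98. Over the 10 libraries with the group difference left in, the gene most like each factor was CG15213 for dve, CG7255 for lab, Burs for Ptx1, Pglym78 for GATAe, milt for exex, Hipk for cad, CG7546 for abd-A, CG12990 for Abd-B and CG4036 for byn, with r from 0.88 to 0.99. Each gene in both series is the highest of 8713 correlations, named without a test. With the group difference left in, a gene that changed between the groups as a factor did gains in r.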

How the data were processed

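PolyA RNA of 10 midgut samples was sequenced from stranded libraries, per the labels' protocols. The authors deposited TPM per transcript for 31181 rows, 92 of them spike-ins, each column summing to 1000000, so depth is unknown. Per the file headers, a second table that the authors deposited gives each gene's log2 fold change and its p-value. The submitters' processing notes list kallisto, Trim Galore, FastQC and edgeR, with no role or version, and build BDGP6, and the sources used here give no strand setting. Genes were taken from the annotation of BDGP6.54 in Ensembl release 115, which matched 31048 of 31089 transcript rows, and summed to 14292 genes. No sequence is shown, since none was among the sources used here.

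Genes and transcripts that reached 1 TPM in 5 or more of the 10 libraries were compared as log2(TPM + 1) with limma 3.58.1 in R 4.3.3 (trend and robust options, two-sided, Benjamini-Hochberg over all features, threshold 0.05). The p-values measure the spread between these 5 libraries per group. "Rose" and "fell" mark features past the threshold. Transcript shares of at least 5% on average, with identical rows summed, were compared by exact permutation tests in SciPy 1.17.1. The gene-wise test was tested on simulated data. The 9 genes and the lists were chosen with earlier results of these data known. Named genes were the 9, and up to 3 per list and 1 per other tissue with the smallest p past the threshold. The gene most correlated with each of the 9 (over all libraries and within groups) was named too. Outside that rule, chosen after their values were seen, were Vha100-4, wg, nub, fkh, drm, GATAd, exd, sob, Hnf4, hth, Irk3, ZnT35C, btl, Syt1, apolpp, grn, pnr, hkb, tll, mex1 and Myo31DF. Alternatives were other pseudocounts, filters, scalings and limma options, a replicate block and leaving out each library. The labels name no batch. Same-numbered libraries of both groups deviated together with an r over 0.1 in 1 of 5 pairs, so the numbers were not taken to pair them.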

Additional observations from a re-analysis of the deposited data

Results flagged for a closer look

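Over 82 groups of 5 values looked at (genes, tested transcripts and transcript shares), 4 held a library far from the other 4 by Dixon's criterion, and chance flags about 1 in 20. cad-RB stood at 2.26 TPM in mex>PGRP-LE replicate 4, where the nearest library had 0.924 TPM. GATAe-RC held 17.0% of GATAe in mex>+ replicate 2, with the next at 8.10%. The Abd-B transcripts RD, RF and RG together held 7.63% of Abd-B in mex>PGRP-LE replicate 2, with the next at 17.4%, and 41.5% in mex>+ replicate 1, with the next at 23.9%.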

How the results depend on the processing

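The falls of dve, lab, exex, cad, Abd-B and byn passed in every setting in which the gene was tested (a filter at a mean of 5 TPM leaves lab, abd-A and Abd-B out), with changes from -0.74 (Abd-B, pseudocount 0.1) to -0.24. A pseudocount of 5 brought lab to -0.30 and Abd-B to -0.34, by construction. The count of factors called higher was 1, and it was 0 under median-of-ratios rescaling, quantile normalization, rescaling to the spike-ins and the replicate block, 0 to 1 with each library left out, and 0 without mex>PGRP-LE replicate 3 and mex>+ replicate 2, the libraries at the ends of the tubule marker sum (an alternative chosen after seeing the data). In the same order Ptx1 had log2 changes of 0.052, 0.078, 0.13, 0.15, 0.12 to 0.20 and 0.14, and Ptx1-RA and Ptx1-RE turned negative at -0.061, -0.026, -0.0055, -0.047 to 0.072 and -0.073, the block excepted. abd-A passed under quantile normalization (-0.25). Hnf4 turned to -0.10, -0.076 and -0.018 under the 3 rescalings. lab-RB turned to 0.0023 with a pseudocount of 5, 0.043 with array weights and 0.077 without both tubule-end libraries, where sob stood at 0.013. With each library left out, GATAe ranged from -0.26 to 0.0080, Hnf4 from -0.030 to 0.028, lab-RB from -0.15 to 0.15, the share of cad-RA from -0.87 to 0.85 and that of Abd-B-RE from -1.89 to 1.35 percentage points. Causes were not tested.

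Among all genes, 3499 were higher and 1991 lower (63.7% of calls higher), against 2753 and 2717 (50.3%) after median-of-ratios rescaling, whose median change was -0.0025 in place of 0.09, and 2986 and 2566 under quantile normalization (53.8%). The replicate block called 3173 higher and 1803 lower. Among the 9 factors, their transcripts and the listed genes, it ended the calls of Ptx1, Ptx1-RC, wg, Irk3, ZnT35C, btl and Syt1 and added hth and apolpp. Same-numbered libraries had an r from -0.23 to 0.57, and 1 of 5 mex>PGRP-LE libraries correlated best with its own number. Depth cannot be judged from TPM, and lab, abd-A and Abd-B are the lowest of the 9.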
